A study of Mus musculus with 12 samples.

Results

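Kruppel-like factors are transcription factors named after a Drosophila segmentation gene, and 10 of their mouse genes, chosen by symbol, were described here: Klf2, Klf3, Klf4, Klf5, Klf6, Klf7, Klf9, Klf10, Klf13 and Klf16. They were 10 of the 35521 genes that had a listed transcript and 10 of the 12555 genes that could be tested, so all members passed the filter on low counts. RNA was sequenced from 12 libraries of 4T1, a mouse mammary carcinoma line of BALB/c origin, in 3 groups of 4. Tu-Gr1+CD11b+–primed 4T1 cells had shared a Transwell plate with Gr1+ myeloid cells from tumors, and Spl-Gr1+CD11b+–primed 4T1 cells with Gr1+ cells from the spleen, in both cases for 48 hours across a membrane with 0.4 μm pores. The Gr1+ cells came from BALB/c mice bearing 4T1 tumors, at day 21 after injection per the labels, and were bound on magnetic columns. Parental 4T1 cells, the third group, had no coculture partner, so both comparisons with them contain the coculture itself and share the same 4 libraries. No genetic change was made in any group, and nothing states how many mice or separate cultures stand behind the 4 libraries of a group, so the p-values measure the spread between libraries, which may be technical.

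Kruppel-like factors bind GC-rich and CACCC-type DNA through zinc fingers near their C-terminus, and differ in the rest of the protein. One branch, with Klf2, Klf4, Klf5, Klf6 and Klf7, mostly activates transcription through histone acetyltransferases; Klf3 represses through the corepressor CtBP; and Klf9, Klf10, Klf13 and Klf16 recruit the SIN3 repressor complex. In epithelia, Klf4 is linked to growth arrest and differentiation and Klf5 to proliferation, and Klf4 is also one of the factors used to reprogram cells to pluripotency. The study names Klf4 among its stem cell genes.

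The promoters are shown first for Klf9 and Klf4, whose levels differed most firmly between both primed groups, and for Klf13, which differed from parental cells in both. The 250 bases before the RefSeq start site are given 5′ to 3′ on the gene's strand (GRCm38.p6). RefSeq promoters were found for 7 of the 10 members and not for Klf5, Klf10 and Klf16. Capitals mark matches, on either strand, to the letters TTCNNNGAA (a STAT element), TGANTCA (an AP-1 element), TGACGTCA (a cAMP response element), GGGCGG (a GC box) and CACCC.
Klf9, chr19:23140976-23141225, plus strand: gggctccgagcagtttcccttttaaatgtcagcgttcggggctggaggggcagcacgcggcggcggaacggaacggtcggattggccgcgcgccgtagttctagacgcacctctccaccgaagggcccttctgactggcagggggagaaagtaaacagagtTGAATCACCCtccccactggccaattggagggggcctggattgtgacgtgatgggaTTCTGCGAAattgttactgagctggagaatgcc
Klf4, chr4:55532476-55532725, minus strand: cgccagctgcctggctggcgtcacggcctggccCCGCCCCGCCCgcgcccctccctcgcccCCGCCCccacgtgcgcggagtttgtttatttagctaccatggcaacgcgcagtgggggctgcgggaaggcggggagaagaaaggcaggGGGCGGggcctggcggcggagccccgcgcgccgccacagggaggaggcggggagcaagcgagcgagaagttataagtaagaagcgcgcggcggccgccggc
Klf13, chr7:63938916-63939165, minus strand: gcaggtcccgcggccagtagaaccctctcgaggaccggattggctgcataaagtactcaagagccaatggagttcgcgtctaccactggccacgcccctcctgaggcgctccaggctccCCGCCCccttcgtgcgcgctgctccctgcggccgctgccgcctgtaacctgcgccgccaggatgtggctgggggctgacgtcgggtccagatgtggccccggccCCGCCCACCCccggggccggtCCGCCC

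The Klf9 window held 1 match to TTCNNNGAA, which 7.02% of 32851 RefSeq promoter windows of that length held, and 1 match to TGANTCA, which 6.75% held. Its TGANTCA match overlapped a CACCC match, letters that 52% of the windows held. It had no GGGCGG, which 32.7% of the windows held, whereas the Klf4 window had 4 such matches and the Klf13 window 3. Of the 7 windows, only that of Klf9 held TTCNNNGAA or TGANTCA, so neither Klf4 nor Klf7, the other members called between both primed groups, had such a match, and TGACGTCA (1.55% of the windows) was found in none of the 7. These are matches of letters in a window and not binding data. The windows were not all alike: the RefSeq starts of Klf7 and Klf3 lay 102 and 133 bases inside their main Ensembl transcripts. Only 148 and 117 bases of their windows lay before those transcripts.

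Counts per gene were scaled to CPM (a gene's counts relative to its library's total, with TMM library factors between 0.88 and 1.05). Library totals lay between 24566183 and 31637755 estimated reads, and each member but Klf2 had between 454 and 3639 reads in every library, against 17 to 40 for Klf2. Of 9 markers of epithelia and of this line, 6 averaged at least 1 CPM in each group. Their summed level was 1625 to 1972 CPM in Tu-Gr1+CD11b+–primed and 2037 to 2180.0 CPM in Spl-Gr1+CD11b+–primed cells. In parental cells it was 2287 to 3415 CPM. Such a sum follows its most abundant markers. Of the 8 tested, 2 were called higher and 3 lower after tumor priming than in parental cells (31.2% and 28% of all genes). After spleen priming 2 were higher and 2 lower (25.7% and 22.5%). Between both primed groups 1 was higher after tumor priming and 0 lower (4.66% and 2.97%). By unadjusted p under 0.05 in edgeR's test, 1 of these markers was higher there and 4 were lower, with no share of all genes beside these counts. Their part in the results was not tested. Of 16 granulocyte and monocyte markers, 3 averaged at least 1 CPM in a group, and Cd177, Mpo, Elane, Tyrobp and Adgre1 were at 0 in every library. In tumor-primed, spleen-primed and parental cells, 10, 10 and 11 of the 16 had at most 3 reads in every library. The others had more reads in at least 1 library of the group. Of these markers 3 were tested, and 1 was called higher in Tu-Gr1+CD11b+–primed cells than in both other groups, while 0 were called between spleen-primed and parental cells. With limma-voom 0 were called between tumor-primed and parental cells. The part of the called marker in the Klf differences was not tested. The 16 summed to 7.15 to 12 CPM, 6.37 to 9.33 CPM and 7.27 to 8.22 CPM in the same order of groups. In bulk RNA, fewer cells with a transcript and less transcript per cell cannot be told apart.

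Between both primed groups, 3 members were higher in Tu-Gr1+CD11b+–primed 4T1 cells (Klf4, Klf7 and Klf9) and 0 lower, at an adjusted p under 0.05 in edgeR's quasi-likelihood test over all 12555 genes. Of all genes tested, 4.66% were called higher and 2.97% lower. The libraries of both groups did not overlap for 6 members that lay higher in Tu-Gr1+CD11b+–primed cells (8.51% of all genes) and for 1 that lay lower (also 8.51%). The median log2 fold change of the 10 members was 0.18, beside -0.01 over all genes. By unadjusted p under 0.05, edgeR's test put 5 members higher and 1 lower. Counts by unadjusted p, here and below, have no share of all genes beside them. At an adjusted p under 0.05 DESeq2 put 4 members higher and 0 lower (803 and 510 of 12555 genes). There limma-voom put 3 and 0 (605 and 371 of 12555 genes).

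Klf9, a repressor of the SIN3 branch whose gene responds to glucocorticoid and thyroid hormones, had the largest difference of the 10 between both primed groups. It lies on chromosome 19 from 23141226 to 23168134 on the plus strand. Its levels were 72.5, 72.8, 77.7 and 57.6 CPM in the 4 Tu-Gr1+CD11b+–primed libraries. They were 49.1, 44.7, 42.6 and 50.3 CPM in the Spl-Gr1+CD11b+–primed libraries and 60.8, 53.1, 54.3 and 51 CPM in the parental libraries. The Tu-Gr1+CD11b+–primed libraries were separate from and above the Spl-Gr1+CD11b+–primed ones, while 1 of them, replicate 4, lay within the parental range. All Spl-Gr1+CD11b+–primed libraries lay below the parental ones. Klf9 was 1.5-fold higher in Tu-Gr1+CD11b+–primed than in Spl-Gr1+CD11b+–primed cells (log2 fold change 0.59 ± 0.09 SE, adjusted p = 0.000806). Against parental cells it was 1.28-fold higher after tumor priming (log2 fold change 0.35 ± 0.09 SE, adjusted p = 0.00334). After spleen priming it was 1.18-fold lower (log2 fold change -0.23 ± 0.09 SE, adjusted p = 0.0431). The first of these 3 calls held under all 23 alternative settings tried, as did the second, whereas the last was lost under 12 of them. Its adjusted p was highest without parental replicate 1 (0.134), and it also failed without parental replicate 3, Tu-Gr1+CD11b+–primed replicate 1 or 2, or Spl-Gr1+CD11b+–primed replicate 2 or 3 (0.0532 to 0.102). Klf9 was 1 of 15 genes (0.119% of those tested) called above parental cells after tumor priming and below them after spleen priming.

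Klf4, on chromosome 4 from 55527143 to 55532466 on the minus strand, was 28.9, 26.2, 27.2 and 24.4 CPM in Tu-Gr1+CD11b+–primed cells. In Spl-Gr1+CD11b+–primed cells it was 19, 19.9, 21.5 and 20.8 CPM, and in parental cells 23.8, 25.7, 23.9 and 23.7 CPM. Every Spl-Gr1+CD11b+–primed library lay below every library of the other groups, and Tu-Gr1+CD11b+–primed and parental libraries overlapped. Klf4 was 1.31-fold higher after tumor than after spleen priming (log2 fold change 0.39 ± 0.06 SE, adjusted p = 0.00144). It was 1.19-fold lower after spleen priming than in parental cells (log2 fold change -0.26 ± 0.06 SE, adjusted p = 0.00492). Both calls held under all 23 alternatives. Against parental cells, the value after tumor priming did not pass the test (log2 fold change 0.14 ± 0.06 SE, adjusted p = 0.0766). It passed with protein-coding transcripts only, without Tu-Gr1+CD11b+–primed replicate 4 and without parental replicate 2 (adjusted p = 0.0326, 0.0281 and 0.0498).

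Klf7, an activator first described as ubiquitous and required in developing neurons, rose in Tu-Gr1+CD11b+–primed cells against both other groups. It lies on chromosome 1 from 64029447 to 64122282 on the minus strand. Its libraries were 40.2, 38.6, 40.2 and 33.6 CPM after tumor priming, 31.1, 30.4, 23.9 and 32 CPM after spleen priming and 24.8, 28.7, 22.9 and 22.3 CPM in parental cells. No Tu-Gr1+CD11b+–primed library overlapped another group, and Spl-Gr1+CD11b+–primed and parental libraries overlapped. The difference between both primed groups was 1.3-fold (log2 fold change 0.38 ± 0.10 SE, adjusted p = 0.0328), and that between tumor-primed and parental cells 1.55-fold (log2 fold change 0.63 ± 0.10 SE, adjusted p = 0.000128). The first of these calls was lost with limma on the deposited normalized table (adjusted p = 0.0571) and without any 1 of Tu-Gr1+CD11b+–primed replicates 1, 2 and 3 and Spl-Gr1+CD11b+–primed replicates 1 and 2, where it lay between 0.0531 and 0.11. After spleen priming Klf7 missed the threshold against parental cells (log2 fold change 0.25 ± 0.10 SE, adjusted p = 0.0541) and passed it under 6 alternatives, among them without Spl-Gr1+CD11b+–primed replicate 3 (adjusted p = 0.00555), parental replicate 2 (0.0141) or Tu-Gr1+CD11b+–primed replicate 4 (0.0485).

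**Figure D1:**
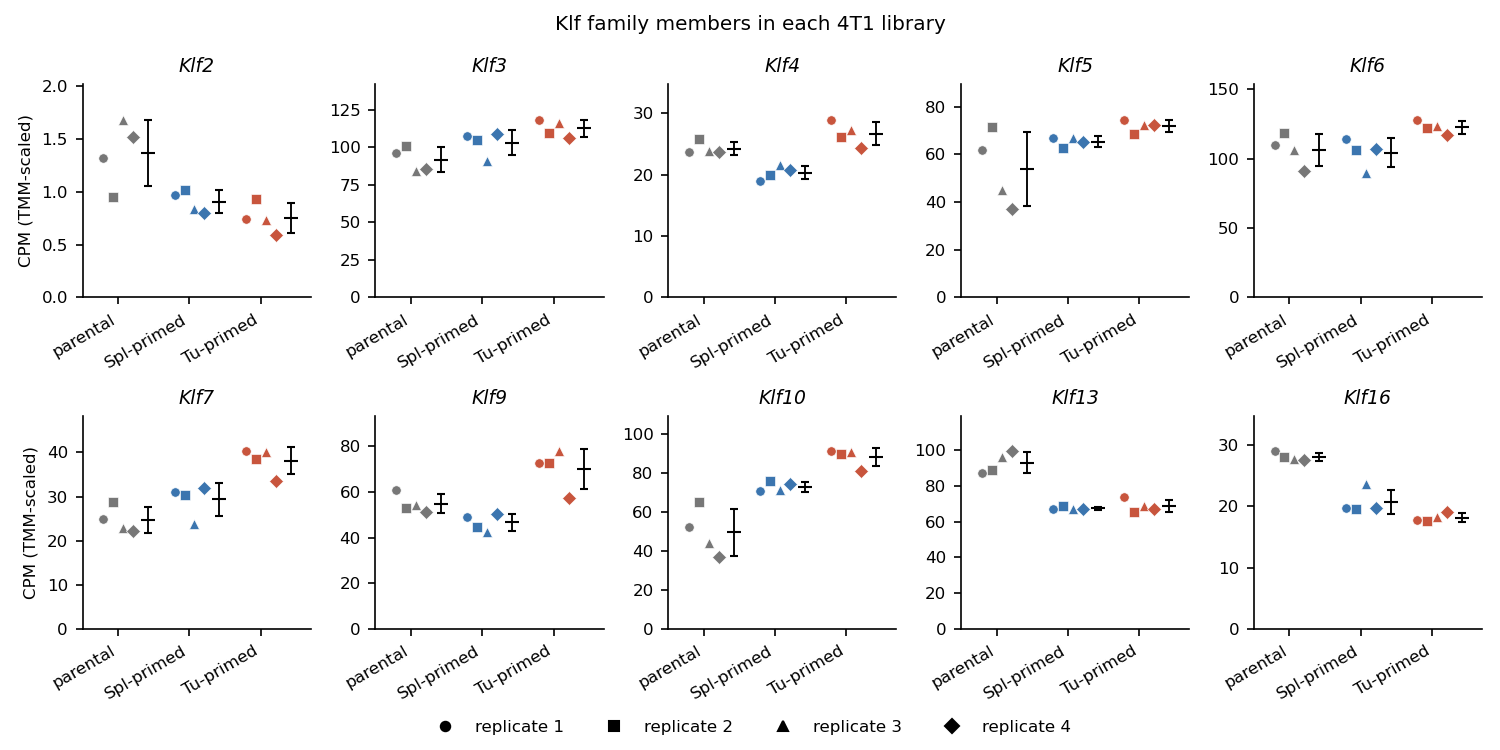
Level of each Klf member in CPM (TMM-scaled, linear axes from 0) in the 12 libraries, grouped as parental, Spl-Gr1+CD11b+–primed and Tu-Gr1+CD11b+–primed 4T1 cells, with the replicate number as the symbol and the mean ± SD of 4 libraries in black. For Klf9 and Klf4 every Tu-Gr1+CD11b+–primed library lies above every Spl-Gr1+CD11b+–primed one, and for Klf13 and Klf16 every parental library lies above all primed libraries.

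Among the other activators, Klf6, a widely expressed factor described as a growth suppressor, was 128, 122, 123 and 117 CPM after tumor priming. It was 114, 106, 90.0 and 107 CPM after spleen priming and 110.1, 118, 106 and 90.9 CPM in parental cells. The libraries of both primed groups did not overlap, yet their difference missed the threshold (log2 fold change 0.23 ± 0.08 SE, adjusted p = 0.107) and passed it only with DESeq2 among the alternatives (adjusted p = 0.0455). Klf6 was called higher in Tu-Gr1+CD11b+–primed than in parental cells (log2 fold change 0.21 ± 0.08 SE, adjusted p = 0.0454), a call lost under 12 of 23 alternatives, with an adjusted p of up to 0.217. These included leaving out parental replicate 1, 3 or 4, Spl-Gr1+CD11b+–primed replicate 2 or 4, or Tu-Gr1+CD11b+–primed replicate 1, 2 or 3 (0.0566 to 0.137). After spleen priming it differed from parental cells by -0.03 on the log2 scale, with a 95% interval of -0.21 to 0.15.

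Klf5, the proliferation-linked epithelial factor, was 74.4, 68.4, 72.5 and 72.3 CPM in Tu-Gr1+CD11b+–primed and 67.1, 62.5, 66.9 and 65 CPM in Spl-Gr1+CD11b+–primed cells. In parental cells it spread more widely, at 61.9, 71.6, 45 and 37.2 CPM, with replicates 1 and 2 near the primed libraries and replicates 3 and 4 below them. Klf3, Klf6, Klf7, Klf10 and Klf16 also lay lower in parental replicates 3 and 4 than in 1 and 2, and Klf2 and Klf13 lay higher. Klf5 was called 1.33-fold higher after tumor priming than in parental cells (log2 fold change 0.41 ± 0.14 SE, adjusted p = 0.024). That call was lost without parental replicate 3 (adjusted p = 0.0821), parental replicate 4 (0.0548) or Tu-Gr1+CD11b+–primed replicate 1 (0.0534). After spleen priming its difference from parental cells was not called (log2 fold change 0.28 ± 0.14 SE, adjusted p = 0.129), and it was called without parental replicate 2 (adjusted p = 0.00903). The libraries of both primed groups did not overlap, and the groups differed by 0.14 on the log2 scale (95% interval -0.17 to 0.45, not called).

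Klf2, a factor of endothelial and T cell quiescence, was the scarcest member, at 0.745, 0.932, 0.734 and 0.59 CPM after tumor priming, 0.973, 1.02, 0.835 and 0.800 CPM after spleen priming and 1.31, 0.947, 1.68 and 1.52 CPM in parental cells. All Tu-Gr1+CD11b+–primed libraries lay below all parental ones, and Klf2 was 1.82-fold lower there (log2 fold change -0.86 ± 0.23 SE, adjusted p = 0.00487). Its 1.5-fold lower value after spleen priming also passed the test (log2 fold change -0.59 ± 0.22 SE, adjusted p = 0.0417), but the call was lost under 15 of 23 alternatives, with an adjusted p of up to 0.126, reached without parental replicate 3. Leaving out parental replicate 1 or 4, any Spl-Gr1+CD11b+–primed library, or Tu-Gr1+CD11b+–primed replicate 1 or 3 also ended it (0.0533 to 0.103).

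Klf3, the CtBP-binding repressor, is one of the more abundant members, at 118, 109.8, 116 and 106 CPM after tumor priming. It was 108, 105, 90.9 and 109 CPM after spleen priming and 96.2, 101, 84.1 and 85.6 CPM in parental cells. Every Tu-Gr1+CD11b+–primed library lay above every parental one, and Klf3 was 1.23-fold higher there (log2 fold change 0.30 ± 0.07 SE, adjusted p = 0.00347). It missed the threshold on the deposited normalized table with limma (adjusted p = 0.0553). Its values after tumor and spleen priming differed by 0.13 (95% interval -0.03 to 0.29), and those after spleen priming and in parental cells by 0.17 (adjusted p = 0.0731). The latter difference was called under 5 alternatives, including without Spl-Gr1+CD11b+–primed replicate 3 (adjusted p = 0.0124) and without parental replicate 2 (0.0274).

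Of the SIN3-binding branch, Klf10, known as an early gene of TGF-β signaling, rose in both primed groups against parental cells. Its libraries were 91.1, 90.0, 90.7 and 81.1 CPM after tumor priming, 70.7, 76.1, 71.1 and 74.2 CPM after spleen priming and 52.3, 65, 44.3 and 37 CPM in parental cells. Neither primed group overlapped the parental libraries or the other primed group. Klf10 was 1.78-fold higher than in parental cells after tumor priming (log2 fold change 0.83 ± 0.12 SE, adjusted p = 6.62e-05) and 1.47-fold higher after spleen priming (log2 fold change 0.56 ± 0.12 SE, adjusted p = 0.00219), and both calls held under the 23 alternatives tried. The difference between both primed groups was not called (log2 fold change 0.27 ± 0.12 SE, adjusted p = 0.198) except in a fit of only their 8 libraries (adjusted p = 0.0092).

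Klf13 and Klf16, the remaining members of that branch, fell in both primed groups. Klf13, known as an activator of Ccl5 in T cells, was 73.8, 65.6, 68.9 and 66.8 CPM after tumor priming and 66.9, 68.9, 67 and 67.4 CPM after spleen priming, against 87.1, 89.2, 96.4 and 99.3 CPM in parental cells. It was 1.35-fold lower after tumor priming (log2 fold change -0.43 ± 0.05 SE, adjusted p = 1.81e-05) and 1.38-fold lower after spleen priming (log2 fold change -0.46 ± 0.05 SE, adjusted p = 2.43e-05). Both primed groups lay below all parental libraries and overlapped each other, with a difference of 0.03 on the log2 scale (95% interval -0.09 to 0.14). Ccl5 itself was at 2.15 ± 0.479, 2.96 ± 0.459 and 2.76 ± 0.258 CPM (mean ± SD, n = 4, tumor-primed, spleen-primed and parental) and was called in none of the 3 comparisons.

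Klf16, described as a regulator of dopamine receptor genes, was 17.7, 17.6, 18.2 and 19.1 CPM after tumor priming, 19.7, 19.6, 23.7 and 19.8 CPM after spleen priming and 28.9, 28, 27.6 and 27.5 CPM in parental cells. The 3 groups did not overlap, with the lowest values after tumor priming. Against parental cells it was 1.54-fold lower after tumor priming (log2 fold change -0.63 ± 0.07 SE, adjusted p = 4.4e-06) and 1.35-fold lower after spleen priming (log2 fold change -0.44 ± 0.07 SE, adjusted p = 0.000141). The difference between both primed groups was not called (log2 fold change -0.19 ± 0.07 SE, adjusted p = 0.107). The calls of Klf13 and Klf16 against parental cells held under all 23 alternatives tried.

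**Figure D2:**
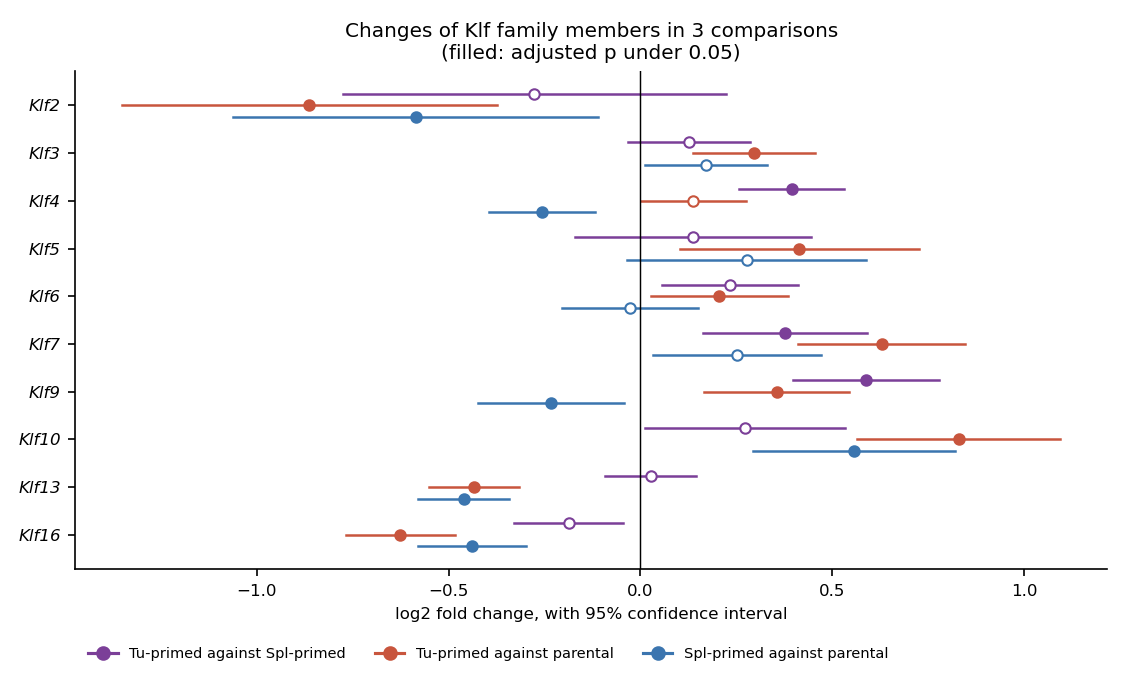
Log2 fold change of each Klf member, on the horizontal axis, in the 3 comparisons (colors), with 95% confidence intervals from edgeR's quasi-likelihood fit of 12 libraries. Filled points passed an adjusted p of 0.05: 3 between both primed groups, 9 of tumor-primed against parental cells and 6 of spleen-primed against parental cells.

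Counted by comparison, 6 members were higher after tumor priming than in parental cells (31.2% of all genes were called higher) and 3 were lower (28% of all genes). After spleen priming 1 member was higher (25.7% of all genes) and 5 were lower (22.5% of all genes). The groups did not overlap for 3 higher and 3 lower members after tumor priming, where 28.6% and 26.9% of all genes did so, and for 1 higher and 4 lower members after spleen priming, beside 21.3% and 18.3%. The median log2 fold change of the members was 0.25 against parental cells after tumor priming and -0.13 after spleen priming, with 0.02 over all genes in both. Only Klf10 was called higher in both primed groups, as were 22.5% of all genes, and Klf2, Klf13 and Klf16 were called lower in both, as were 20% of all genes.

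Compared per length, as CPM per kilobase of effective transcript length (RPKM, TMM-scaled), Klf6 had the highest level of the 10 in all 3 groups and Klf2 the lowest. Klf6 was 47.9 ± 1.76 RPKM (mean ± SD, n = 4) after tumor priming, 40.8 ± 4.01 after spleen priming and 41.6 ± 4.49 in parental cells, and its libraries lay above those of the next member in each group. Over all libraries, its mean RPKM was above that of 78.5% of the tested genes. That level includes a 799-base transcript annotated as retaining an intron, at 29.5, 23.8, 28.1 and 30.9 TPM in the tumor-primed libraries. The main coding transcript of Klf6 stood at 39.6, 38.1, 39.8 and 35.7 TPM there. All Klf10 transcripts together stood at 54.2, 46.2, 47.6 and 49.5 TPM, so the first rank of Klf6 in tumor-primed cells depends on the 799-base transcript. In Tu-Gr1+CD11b+–primed cells the order ran Klf6, Klf10, Klf3, Klf5, Klf9, Klf13, Klf4, Klf16, Klf7 and Klf2, where Klf10 and Klf3 (34.8 ± 1.89 and 31.8 ± 1.61 RPKM) were the one pair of neighbors whose libraries overlapped. In Spl-Gr1+CD11b+–primed cells Klf3 stood before Klf10, Klf13 before Klf9 and Klf16 before Klf4, and the libraries of the first 2 of these pairs overlapped. In parental cells the order was Klf6, Klf3, Klf10, Klf5, Klf13, Klf9, Klf16, Klf4, Klf7 and Klf2, and Klf3, Klf10 and Klf5 each overlapped the next in line. Klf9 thus stood before Klf13 in tumor-primed cells (16.6 ± 2.06 and 11.6 ± 0.612 RPKM) and after it in parental cells (13 ± 0.998 and 15.7 ± 0.978 RPKM). Klf2 was 0.47 ± 0.0878, 0.567 ± 0.0656 and 0.854 ± 0.197 RPKM after tumor priming, after spleen priming and in parental cells.

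The 10 members summed to 189 ± 8.48 RPKM in tumor-primed, 163 ± 6.59 RPKM in spleen-primed and 158 ± 16.4 RPKM in parental cells (mean ± SD, n = 4). The Tu-Gr1+CD11b+–primed libraries (178 to 197 RPKM) lay above all others, since the parental libraries reached 177 and the Spl-Gr1+CD11b+–primed libraries 168 RPKM. This sum is a description and was given no test. Summed as CPM, without the scaling for length, the tumor-primed libraries (579 to 646 CPM) overlapped the parental ones (476 to 582 CPM). Klf6 made up 25.4% ± 0.51, 24.8% ± 2.98 and 26.4% ± 2.1 of the family's summed TPM in the same order of groups, and Klf10 18.8% ± 0.922, 17.2% ± 1.11 and 12.4% ± 2.74. The Klf6 share includes the 799-base transcript described above. Klf16 took 3.92% ± 0.217 after tumor priming, 5.28% ± 0.978 after spleen priming and 7.38% ± 0.74 in parental cells.

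**Figure D3:**
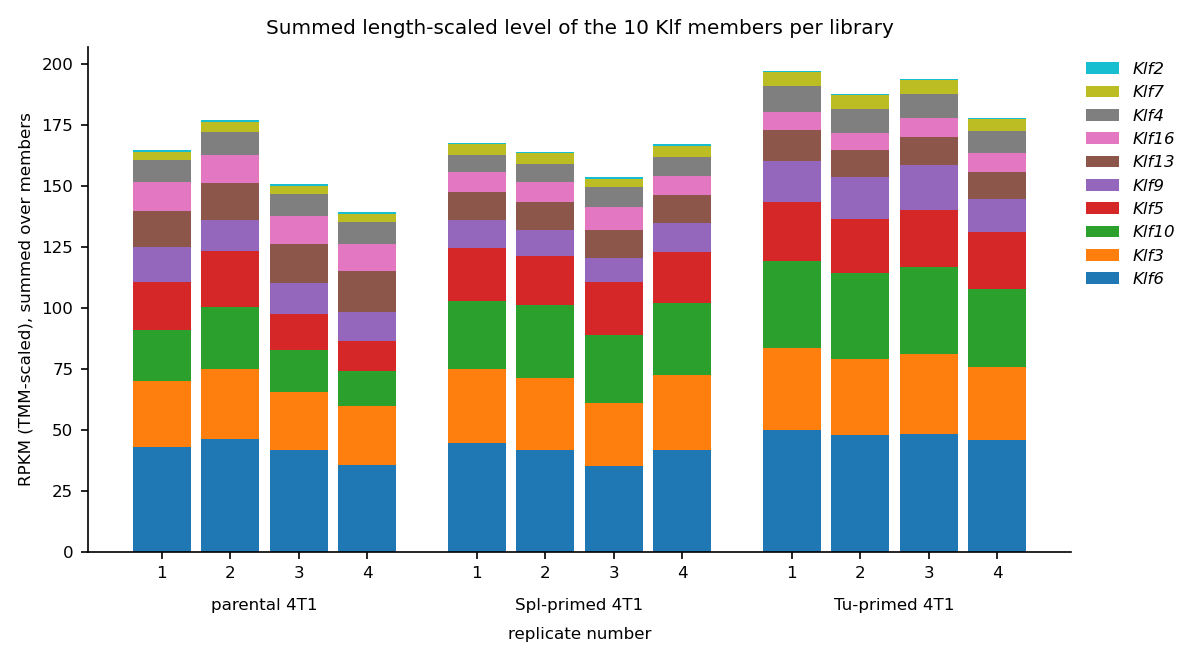
Summed level of the 10 Klf members in each library, stacked by member, in TMM-scaled RPKM (linear axis from 0), for replicates 1 to 4 of parental, Spl-Gr1+CD11b+–primed and Tu-Gr1+CD11b+–primed 4T1 cells. Klf6, whose level includes a 799-base retained-intron transcript, is the largest block in every library. The 4 Tu-Gr1+CD11b+–primed libraries, at 178 to 197, are the highest, with parental libraries at up to 177.

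The deposited estimates are per transcript, so the share of each member's reads on transcripts annotated as retaining an intron could be followed. Klf3 and Klf6 had enough reads on such transcripts, at least 10 on average, and 6 comparisons were made with exact permutation tests of 4 against 4 libraries, where the smallest p is 0.0286. For Klf3 the share was 1.15, 1.24, 1.62 and 1.23% after tumor priming and 1.66, 1.15, 1.4 and 1.53% after spleen priming. In parental cells it was 0.439, 0.687, 1.05 and 0.378%, below every primed library. The difference was 0.67 percentage points after tumor priming and 0.79 after spleen priming (for both a two-sided exact permutation p = 0.0286, 0.0857 after Benjamini-Hochberg adjustment over the 6), so neither passed the adjusted threshold. Measured as a share of TPM instead, these differences turned to -0.177 and -0.0983 percentage points. In parental replicate 3 a 1026-base retained-intron transcript held 0.688 of the 20.2 TPM of Klf3, on 13.4 reads. It held 0.248 TPM in parental replicate 1 and 0 in every other library. Its part in the turn of sign was not tested. Between both primed groups the share of Klf3 differed by -0.12 points (exact permutation p = 0.457).

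In the same libraries, retained-intron transcripts of all genes held 3.04 to 3.63% of the reads in primed cells and 2.04 to 2.27% in parental cells. For Klf6 the share was 9.2% ± 1.12 after tumor priming, 8.64% ± 2.34 after spleen priming and 8.9% ± 1.31 in parental cells (mean ± SD, n = 4), with a smallest exact permutation p of 0.686 over its 3 comparisons. Klf10 reads fell mainly on a pair of coding transcripts. The shorter of them (2917 bases) took 0 to 26.1% of the reads after tumor priming, 14.8 to 33.9% after spleen priming and 0 to 40.2% in parental cells, so that libraries of 1 group differed as much as the groups did.

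**Figure D4:**
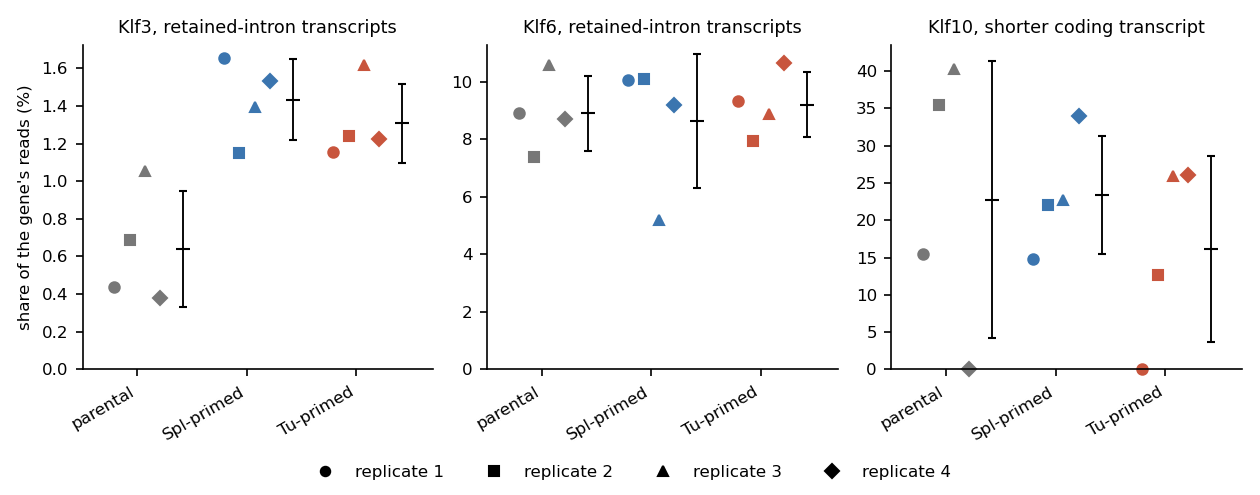
Share of reads, in percent on axes from 0, on retained-intron transcripts of Klf3 and of Klf6 and on the shorter of both main coding transcripts of Klf10, per library and group, with the replicate number as the symbol and the mean ± SD of 4 libraries in black. The Klf3 share lies lower in all 4 parental libraries (0.378 to 1.05%) than in the primed ones (1.15 to 1.66%), while the groups overlap for Klf6 and Klf10.

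Of the 7 other Klf genes in the annotation, Klf8 and Klf12, which also bind CtBP, and Klf11, a SIN3-binding relative of Klf10, could be tested, and 0 of the 3 passed in any comparison with edgeR, DESeq2 or limma-voom. By unadjusted p under 0.05 in edgeR's test, 1 passed between both primed groups (Klf11) and 0 against parental cells. Klf11 was at 26.1 ± 1.77, 22.5 ± 2.43 and 24 ± 2.76 CPM, Klf8 at 4.56 ± 0.483, 4.17 ± 0.795 and 3.74 ± 0.43 CPM and Klf12 at 3.76 ± 0.307, 3.06 ± 0.353 and 3.21 ± 0.736 CPM (tumor-primed, spleen-primed and parental). Klf1, the erythroid factor, had at most 0.48 CPM and was not tested. Klf14, Klf15 and Klf17 had 0 reads in every library, which allows up to 3 reads or 0.123 CPM. Of the related Sp genes, whose proteins bind the same GC boxes, 5 of 9 were tested and 0 passed between both primed groups with any of the 3 tools (1, Sp6, by edgeR's unadjusted p under 0.05). Sp2 was lower after tumor and spleen priming than in parental cells (-0.28 and -0.22 on the log2 scale; adjusted p = 0.000498 and 0.00372), and Sp3 was higher after tumor priming (log2 fold change 0.18 ± 0.07 SE, adjusted p = 0.0424). Sp1 and Sp6 were not called, at log2 fold changes of 0.07 and 0.50 between both primed groups.

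Partners of the Klf proteins were taken from a list of 13 cofactors, all tested. Between both primed groups 0 passed with any of the 3 tools (1 was lower by edgeR's unadjusted p under 0.05, Ctbp1). Relative to parental cells, 4 rose and 4 fell after tumor priming, and 2 rose and 2 fell after spleen priming. For these and the following lists, the shares of all genes called between both primed groups were 4.66% higher and 2.97% lower. Against parental cells they were 31.2% higher and 28% lower after tumor priming and 25.7% higher and 22.5% lower after spleen priming. Counts near those shares are not particular to a list. Ctbp1, which encodes the corepressor bound by Klf3, was lower in both primed groups than in parental cells (-0.45 after tumor and -0.31 after spleen priming on the log2 scale; adjusted p = 1.76e-05 and 0.000585). Kat2b, a histone acetyltransferase, was higher in both (0.57 and 0.47; adjusted p = 0.000107 and 0.000792), and Fhl3, a partner of Klf3, was lower after tumor priming (log2 fold change -0.20 ± 0.07 SE, adjusted p = 0.0152).

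Of 11 genes for the turnover of Klf proteins, 1 passed between both primed groups: Fbxo32, an F-box protein of ubiquitin ligases, was higher after tumor priming (log2 fold change 0.78 ± 0.09 SE, adjusted p = 0.000132), at 12.9 ± 1.37 CPM against 7.49 ± 0.711 CPM after spleen priming and 7.95 ± 0.472 CPM in parental cells. Against parental cells 5 of the 11 were higher and 0 lower after tumor priming with each of the 3 tools (1 lower by edgeR's unadjusted p under 0.05, Usp3). After spleen priming edgeR and limma-voom called 2 higher and 1 lower, and DESeq2 2 and 2. Of 14 genes upstream of Klf genes, 1 passed between both primed groups, Stat3, the transcription factor of IL-6 family signaling. Stat3 was at 158 ± 20.7 CPM after tumor priming, 73 ± 3.88 CPM after spleen priming and 58.8 ± 4.92 CPM in parental cells (tumor against spleen priming: log2 fold change 1.12 ± 0.09 SE, adjusted p = 9.73e-06). In the comparison of tumor-primed and parental cells 3 of the 14 were higher and 5 lower, and in that of spleen-primed and parental cells 3 were higher and 4 lower, beside the same shares of all genes.

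Of 24 genes described as Klf targets, 21 were tested. Between both primed groups, 4 stood higher after tumor priming and 1 stood lower, beside 4.66% and 2.97% of all genes. Those higher included, named after their values had been seen, S1pr1, a lymphocyte trafficking gene under Klf2, Ptges, a prostaglandin synthase, and Tgfbr1, a TGF-β receptor subunit, with log2 fold changes of 1.00, 0.30 and 0.44 (adjusted p = 0.0162, 0.00115 and 0.0241). S1pr1 was scarce, at 2.39 ± 0.564 CPM after tumor priming. Odc1, of polyamine synthesis, was the lower one (log2 fold change -0.31 ± 0.08 SE, adjusted p = 0.041). Against parental cells 8 targets were higher and 6 lower after tumor priming, and 4 higher and 5 lower after spleen priming, of 21 tested and beside the same shares of all genes. Cdkn1b, a cell cycle inhibitor, was higher in both (0.93 and 0.87; adjusted p = 3.82e-06 and 1.35e-05), whereas Ccnd1, a cyclin, was lower in both (-0.36 and -0.25; adjusted p = 1.7e-05 and 0.000555). The median log2 fold change of the tested targets was -0.06, 0.01 and -0.01 in the 3 comparisons, beside -0.01, 0.02 and 0.02 over all genes.

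For the 3 members called between both primed groups, the genes with the most similar pattern were sought as those with the smallest root mean square difference of centered log2 CPM over the 12 libraries. Klf9 was most like Hif1a, the oxygen-sensitive transcription factor subunit (0.0656), then Cask, a scaffold kinase (0.0671), and Ptpn13, a tyrosine phosphatase (0.102). Klf4 was most like Tsku, Ext1 and Pdzrn3 (0.0716, 0.072 and 0.0734), and Klf7 like Fndc3b, Rin2 and Acsl4 (0.0555, 0.0699 and 0.072). Only 2 genes came within 0.1 of Klf9, beside 30 for Klf4 and 26 for Klf7.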

How the data were processed

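Libraries were made from total RNA with a stranded kit and, per the submitters' processing notes, trimmed with Trimmomatic 0.39 and quantified with Salmon 1.4.0; the build named is GRCm38. The authors deposited estimated counts per Ensembl transcript for each library, not normalized, together with TPM, which their quantification scaled for transcript length and depth. A deposited series table gives the authors' normalized signal for each gene; over 12384 genes, 98.7% of its values lay within 1% of DESeq2 size factors with length offsets.

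Estimated counts were summed per gene with GENCODE M21, which held 116021 of 117081 transcripts (the others had at most 0.419% of a library's reads), and rounded. Counts were tested in R 4.3.3 with edgeR 4.0.16 (filterByExpr, TMM, quasi-likelihood, 12 libraries, group only, Benjamini-Hochberg over 12555 genes, threshold 0.05), with DESeq2 1.42.0 and limma 3.58.1 as alternatives beside other scalings, filters, samples, a replicate block, transcript sets and each library left out. limma on the deposited table used a pseudocount of 1 and a mean above 10. A 204-base mitochondrial transcript took 4.52 to 15.0% of TPM, more in parental cells, so levels between groups are given as TMM-scaled RPKM. On simulated data edgeR found 180 of 199 genes changed 2-fold between both primed groups and called 5 unchanged genes. All 10 members differed by less than 2-fold in each comparison, and changes of that size were not simulated. The precision of a value is the spread of 4 libraries; a count of 0 allows 3 counts. Exact tests used scipy 1.17.1.

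The members and lists were chosen with earlier results of these data known. Genes named were the members, the other Klf genes, and, of each list, those called between both primed groups or, where more than 4 or 0 were called, the 4 with the smallest p over the 3 comparisons. The 3 genes most like Klf4 and the 2 other members with the smallest p between both primed groups were also named. Genes outside this rule (Ccl5, Usp3, the markers at 0 and the 3 targets marked in the text) were chosen once their values were known. Some list members that the rule names are not reported here, though the counts include them.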

Additional observations from a re-analysis of the deposited data

Results flagged for a closer look

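Klf9, Klf4 and Klf7 changed against parental cells by different amounts in both primed groups. The change after tumor priming minus that after spleen priming was 0.59 for Klf9, 0.39 for Klf4 and 0.38 for Klf7 on the log2 scale, which equals the tested difference between Tu-Gr1+CD11b+–primed and Spl-Gr1+CD11b+–primed cells.

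Single libraries stood apart from the other 3 of their group for 3 members. Klf4 was 25.7 CPM in parental replicate 2 and 23.7 to 23.9 CPM in the others. Klf10 was 81.1 CPM in Tu-Gr1+CD11b+–primed replicate 4, with the others at 90.0 to 91.1 CPM. Klf16 was 23.7 CPM in Spl-Gr1+CD11b+–primed replicate 3, against 19.6 to 19.8 CPM in the others. Of 36 groups of 4 values examined 3 had such a gap, and chance gives it in about 1 in 20 groups (5%).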

How the results depend on the processing

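Of the 690 fold changes of members recomputed under alternatives, 618 kept their direction and their side of the threshold, 49 lost the call, 17 gained it and 6 changed sign. Those that changed sign were never called. Klf13 between both primed groups was -0.012 with transcript length offsets and -0.0029 on the deposited table, and -0.0094 to 0.049 with 1 library left out. Klf6 in spleen-primed against parental cells was 0.017 with protein-coding transcripts only and -0.096 to 0.026 with 1 library left out. Members higher after spleen priming than in parental cells numbered 3 in place of 1 with upper-quartile normalization, with at least 10 counts in every library and with protein-coding transcripts only (1 to 4 with 1 library left out). Members lower there numbered 3 in place of 5 with upper-quartile normalization, transcript length offsets and protein-coding transcripts only (3 to 5 with 1 library left out). Over all genes tested, 3225 were higher and 2828 lower there in the main fit (of 12555). Upper-quartile normalization gave 3506 and 2478 (of 12555), and transcript length offsets 2592 and 2159 (of 12555). At least 10 counts in every library gave 3108 and 2702 (of 11585), and protein-coding transcripts only 2679 and 2317 (of 11826). With 1 library left out they were 2759 to 3382 and 2380 to 3269. Members higher after tumor priming numbered 4 to 7 against parental cells and 2 to 3 against spleen priming with 1 library left out. Over all genes, 3512 to 4172 and 402 to 662 were called higher in those fits. The causes were not tested.

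Libraries with the same replicate number in different groups had correlations of their deviations from -0.164 to 0.148, and 2 of 12 were above 0.1, so the numbers were not taken to pair them. With the replicate number as a block, 3 members were lower after spleen priming than in parental cells in place of 5, since Klf2 and Klf9 lost their calls (adjusted p = 0.0771 and 0.0554). Of all 12555 genes, 2701 were called lower there with the block, in place of 2828. No other call of a member changed under the block.

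As a share of TPM, the retained-intron differences of Klf3 from parental cells were -0.177 points after tumor and -0.0983 points after spleen priming. The 1026-base transcript described above entered both through the parental libraries only. Those of Klf6 lay from -0.583 to 1.05 between both primed groups, from -0.199 to 0.864 after tumor priming and from -0.765 to 0.887 after spleen priming with 1 library left out, where the smallest p of 3 against 4 libraries is 0.0571. Read depth limits Klf2 most, at 17 to 40 reads a library.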
